A study of Homo sapiens with 8 samples.

Results

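The regions described are stretches of open chromatin that 2 KOSC-2 libraries from irradiated cells shared and both libraries from unirradiated cells lacked, or the reverse. KOSC-2 is an established cell line from an oral squamous cell carcinoma, which the labels call radiosensitive. Its cells were irradiated with 8 Gy or left at 0 Gy and snap frozen after 24 hours, which gave 2 libraries for each dose among the 8 of the series. The other 4 come from HSC-3, an oral squamous carcinoma line that the labels call radioresistant, at the same doses. No genetic change or drug is named for any group, and separate cultures are not stated for the libraries of a dose, so p-values reflect the spread between libraries, which may be technical. Each line was irradiated at a single dose and sampled at a single time.

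In ATAC-seq the Tn5 transposase inserts sequencing adapters into DNA that is not covered by nucleosomes, so that reads pile up at promoters, enhancers and other regulatory elements. Ionising radiation breaks both DNA strands, and chromatin around breaks is remodelled while repair and checkpoint signalling proceed. A peak list records only where the pileup passed a caller's threshold. A region missing from a list may therefore be closed or may have fallen short of that threshold in that library.

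Peaks of the 4 KOSC-2 lists on chromosomes 1 to 22 were joined wherever they shared at least 1 bp, which gave 66184 merged regions. Of these, 2767 (4.18%) were called in both 8 Gy lists and in no 0 Gy list and are named gained. The reverse pattern was met by 696 regions (1.05%), named lost. Another 25071 regions (37.9%) were called in all 4 lists and are named stable. A single list held 21443 regions, 2 lists shared 9899 and 3 lists shared 9771. Gained and lost regions are defined by these calls, so their calls by dose are a description. Positions are those of hg19, the build of the lists. Genes near the regions and markers of epithelial cells were not analysed here, because no gene positions of that build were used.

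The lists differed in length and library quality within each dose. On chromosomes 1 to 22 the 0 Gy lists held 37463 and 44364 peaks (replicates 1 and 2) and the 8 Gy lists 50448 and 41407. The values of the doses overlap. The lowest background of a list, its genome-wide level and a measure of depth, was 64.8, 31.4, 41.0 and 24.3 reads per 10 kb in the same order. The median summit pileup at stable regions was 19.0, 40.3, 36.6 and 48.0 times that lowest level, which is not the local background behind the authors' fold. The 0 Gy library replicate 1 therefore stood apart, with the highest genome-wide background, the lowest enrichment and the shortest list. It shared 51.8% to 53.8% of the regions of either list with each other library, whereas the other 3 pairs shared 63.9% to 65.6%.

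Irradiated and unirradiated cells were separated by about as many regions as libraries of mixed dose. The split by dose separated 3463 regions, gained and lost together. The first mixed split, which sets both libraries numbered 1 against both numbered 2, separated 3011. The second, which sets 0 Gy replicate 1 and 8 Gy replicate 2 against the other pair, separated 3425. The dose split was thus 1.01 times the higher mixed split (exact permutation test over 3 splits, one-sided p = 0.333, the smallest that 4 libraries allow). When every list was cut to its strongest 37463 peaks, the order turned: the dose split separated 2770 regions and the mixed splits 2105 and 2819.

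Gained regions outnumbered lost regions 3.98 times, and in the lists as deposited the counts of all pairs followed the length of the lists behind them. The pair with the longest lists, 0 Gy replicate 2 with 8 Gy replicate 1 (94812 peaks together), shared 3105 regions (4.69%) that the other lists lacked. The 8 Gy pair came next with 91855 peaks and its 2767 gained regions. The pair of libraries numbered 1 (87911 peaks) shared 1677 regions (2.53%) and the pair numbered 2 (85771 peaks) shared 1334 (2.02%). The 0 Gy pair, with 81827 peaks, shared the 696 lost regions. The pair with the shortest lists, 0 Gy replicate 1 with 8 Gy replicate 2 (78870 peaks), shared 320 (0.484%). The 6 counts stand in the same order as the summed list lengths, and the pairs have libraries in common. With lists of equal length, gained regions numbered 1775 and lost regions 995, a ratio of 1.78. The 4 mixed pairs then shared 656 to 1635 regions, so the gained count was the largest of the 6. The pair with the longest deposited lists then shared 1449.

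**Figure D1:**
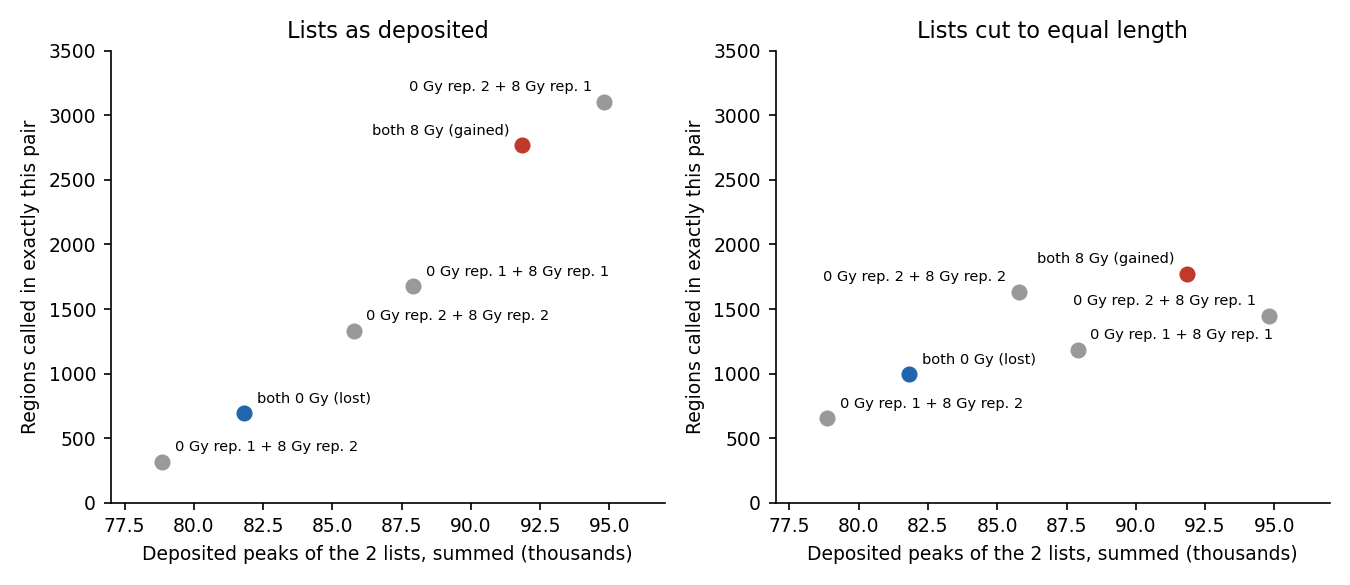
Number of merged regions called in exactly 1 pair of KOSC-2 libraries (vertical axis) against the summed deposited length of the 2 lists (horizontal axis, from 78870 to 94812 peaks), for lists as deposited (left) and cut to equal length (right). Each point is 1 of 6 pairs, red for 8 Gy, blue for 0 Gy and grey for mixed dose; on the left the points rise in the order of list length, from 320 to 3105 regions.

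Because the 0 Gy library replicate 1 stood apart, the other 3 libraries were also merged on their own. Regions missing from 1 list and called in the other 2 then numbered 3774 for 0 Gy replicate 2, 1733 for 8 Gy replicate 1 and 5046 for 8 Gy replicate 2. Regions called in 1 list alone numbered 5120, 9737 and 3543 in the same order. In both counts the unirradiated library lay between the irradiated libraries. Its list was also between theirs in length, with 44364, 50448 and 41407 peaks in the same order. With a single 0 Gy list, gained regions need calls in 2 lists and lost regions in 1, so the ratio of 3.98 has no counterpart of the same form among these libraries. The part of the low enrichment of 0 Gy replicate 1 in the gained class was not tested further.

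Whole-list measures overlapped between the doses. The 8 Gy lists averaged 45928 ± 6393 peaks and the 0 Gy lists 40914 ± 4880 (SD, n = 2 each), a difference of 5014 (exact two-sided permutation test, p = 0.667). The covered length was 26.2 ± 4.43 Mb at 8 Gy and 22.7 ± 2.38 Mb at 0 Gy (SD, n = 2 each, exact permutation p = 0.667). The median peak was 468 ± 8.49 bp wide at 8 Gy and 465 ± 9.90 bp at 0 Gy (SD, n = 2 each, exact permutation p = 0.667). At stable regions the median width was 561 and 602 bp in the 0 Gy libraries and 681 and 587 bp in the 8 Gy libraries, so the doses overlap there too (exact permutation p = 0.667).

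Gained and lost regions were narrow. The median gained region was 415 bp wide (quartiles 371 and 515 bp) and the median lost region 424 bp (369 and 506 bp), against 777 bp for stable regions. Regions shared by 1 mixed-dose pair had medians of 397 to 458 bp, a range that holds both values. A stable region joins peaks of 4 libraries and the others join peaks of 2, which widens stable regions by construction.

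They were also weak. Ranked by −log10 q within their own lists, gained regions had a median percentile of 24.9 and lost regions of 26.4, between the 22.9 and 27.1 that bound the mixed pairs, whereas stable regions had 67.6. Regions called in 1 list had a median of 14.7 and those called in 3 lists 36.1. Absence from 2 lists favours weak peaks by construction, so the contrast with stable regions follows from the class rule. The median summit pileup of gained regions was 18 reads in 8 Gy replicate 1 and 13 in 8 Gy replicate 2. For lost regions it was 21 reads in 0 Gy replicate 1 and 14 in 0 Gy replicate 2. The smallest pileup called in these lists was 6 to 9 reads. In the same library order, the median −log10 q was 9.12 and 8.20 for gained regions and 8.12 and 7.92 for lost regions. The lowest −log10 q of the lists was 2.02 to 2.11. Only 111 gained (4.01%) and 40 lost regions (5.75%) lay above the 50th percentile of their lists, compared with 0.625% to 8.23% of the regions of the mixed pairs.

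Summits of the libraries that called a region lay close together, which the merging rule favours. Their peaks were joined because they overlap, and the median region was only 415 bp (gained) or 424 bp (lost) wide. The strongest summits of both calling libraries lay a median of 46 bp apart in gained regions and 47 bp in lost regions, and 43 to 61.5 bp apart in the mixed pairs. They fell within 150 bp of each other in 89.4% of gained and 87.1% of lost regions.

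Gained and lost regions lay about as far from stable regions as the regions of mixed pairs did. The median gap to the nearest stable region was 24.3 kb for gained (quartiles 9.50 and 63.7 kb) and 25.6 kb for lost regions (7.65 and 67.4 kb). It ranged from 21.1 to 26.6 kb over the mixed pairs and was 19.9 kb between stable regions. A stable region stood within 1 kb of 4.34% of gained and 5.89% of lost regions, with 4.06% to 5.37% in the mixed pairs. More than 100 kb separated 16.0% of gained and 17.8% of lost regions from any stable region, with 11.3% to 16.1% in the mixed pairs. The lost class was thus slightly above the mixed range at both limits, and the gained class was within it.

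**Figure D2:**
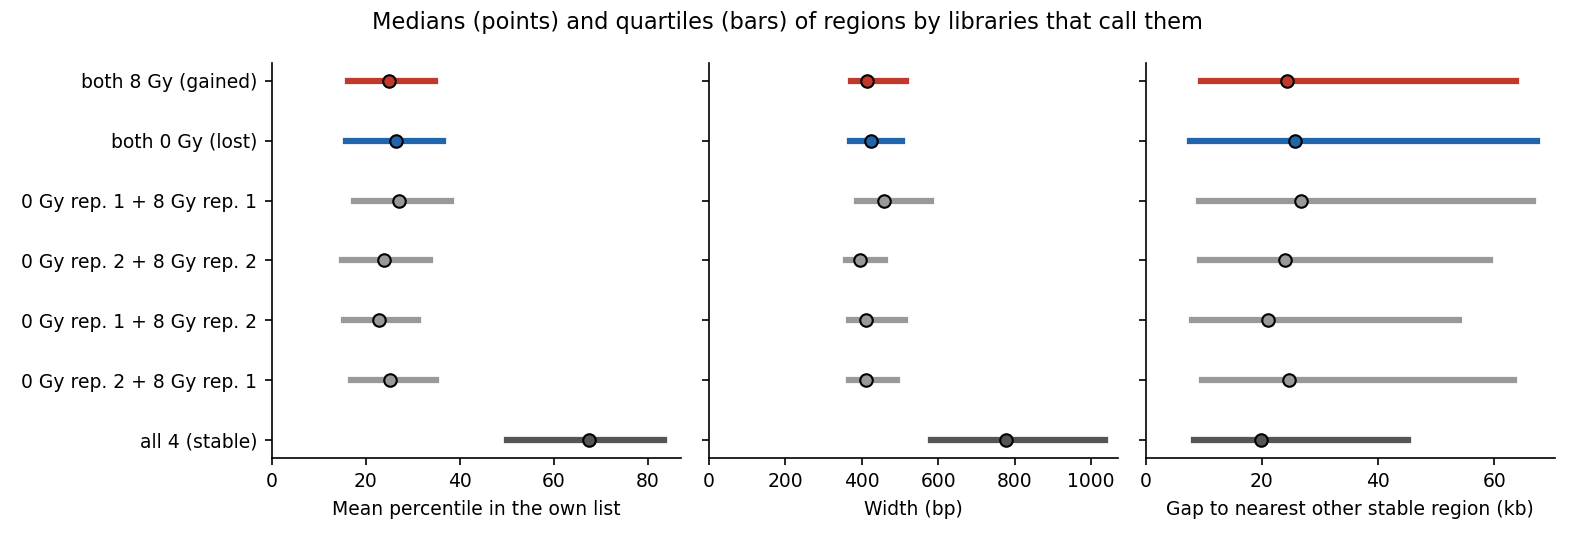
Mean percentile within the calling lists, width in bp and gap to the nearest other stable region in kb (horizontal axes) for gained, lost, mixed-pair and stable KOSC-2 regions (rows). Points are medians and bars span the quartiles over regions; the gained and lost medians for percentile (24.9 and 26.4) sit among the mixed pairs and far below the stable regions (67.6).

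Over the chromosomes, gained and lost regions each stayed within the range of the 4 mixed pairs on 16 of 22 chromosomes. Gained regions took a larger share than any mixed pair on chromosomes 6, 17, 19 and 22 and a smaller one on 3 and 10. Chromosome 10 held 4.08% of gained regions against 4.89% to 6.25% in the mixed pairs, and chromosome 17 held 4.37% against 3.13% to 3.64%. All merged regions had 4.85% on chromosome 10 and 3.84% on chromosome 17. Chromosome 19 held 3.72% of gained regions against 1.91% to 3.13%. All merged regions had 3.34% there and stable regions 3.97%, above the gained share. Lost regions exceeded the mixed pairs on chromosomes 6 and 11 and fell short of them on 3, 4, 9 and 17. Chromosome 6 held 6.32% of lost regions, 44 in number, against 4.38% to 5.07%. Gained regions, at 5.10%, were barely above that range and just below the 5.14% of all merged regions. On chromosome 3 both classes were below the mixed range. On chromosome 17 the classes lay on opposite sides of it, with 121 gained and 18 lost regions, or 4.37% and 2.59%. Stable regions took 4.04% on that chromosome. Shares of small classes carry wide counting error, and no test over regions was run.

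**Figure D3:**
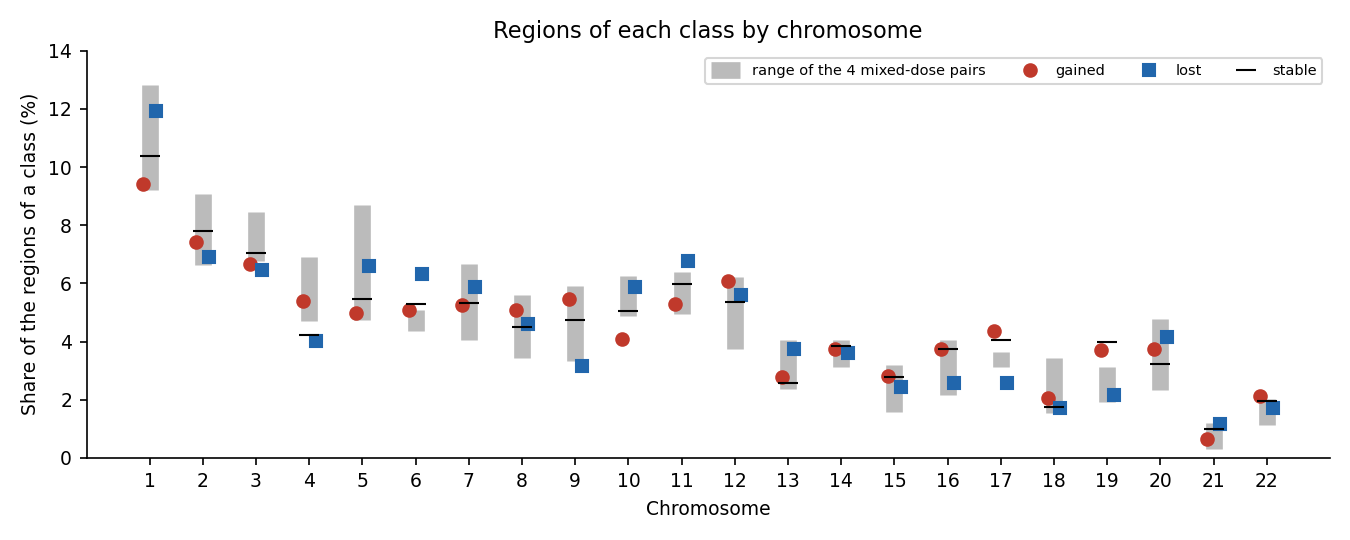
Share of the regions of a class in percent (vertical axis) on each of chromosomes 1 to 22 (horizontal axis). Red circles are gained, blue squares lost and black dashes stable regions, and grey bars span the 4 mixed-dose pairs; gained and lost regions leave the grey bars on 6 chromosomes each, above and below.

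The strongest gained region, by mean percentile, was chr10:5590571-5591247. Its summit held 68 reads in 8 Gy replicate 1 and 53 in replicate 2, at percentiles 78.2 and 77.9 of their lists. The local background was 9.75 and 5.52 reads, the highest among the 5 strongest gained regions. Both irradiated libraries ranked this region alike. In HSC-3 only 8 Gy replicate 2 called it.

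The second, chr12:89319590-89320423, was 834 bp wide and stood 92.7 kb from the nearest stable region. Its summit held 35 and 30 reads over backgrounds of 2.19 and 1.26, at percentiles 74.1 and 75.3. It was also called in both HSC-3 libraries at 0 Gy and in 8 Gy replicate 2 of that line. In HSC-3 it was thus open without irradiation.

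The other 3 were ranked less evenly by the irradiated libraries. The region chr17:9739265-9739749 had 38 and 27 reads at its summit and percentiles of 73.5 and 62.7. It was called in HSC-3 at 0 Gy (replicate 1) and at 8 Gy (replicate 2). The region chr3:100712139-100712538 had 35 and 24 reads and percentiles of 76.0 and 59.3, and only HSC-3 8 Gy replicate 2 called it in that line. The region chr5:126590518-126591012 had 39 and 20 reads and percentiles of 78.5 and 55.7, and no HSC-3 library called it. In all 3 the rank was higher in replicate 1 than in replicate 2.

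The strongest lost region was chr9:114714843-114715293, with 38 reads at its summit in 0 Gy replicate 1 and 24 in replicate 2, at percentiles 75.8 and 57.2. In HSC-3 only 8 Gy replicate 2 called this region. The next, chr11:109490227-109490668, had 27 and 22 reads and percentiles of 67.8 and 64.5, and lay 75.8 kb from a stable region. All 4 HSC-3 libraries called it, the irradiated ones included. The third, chr5:21808011-21808534, had 29 and 32 reads and lay only 0.487 kb from a stable region. In HSC-3 only 0 Gy replicate 1 called it.

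By percentile, the last 2 of the strongest lost regions differed most between the unirradiated libraries. At chr12:27500652-27501106 the summit held 52 and 36 reads, at percentiles 77.5 and 51.0. At chr5:67611471-67612036 it held 30 and 35 reads, at percentiles 51.7 and 75.1. Each of these regions was called in 3 HSC-3 libraries, both at 0 Gy and 8 Gy replicate 1.

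The widest members were not strong ones. The widest gained regions were chr8:37698833-37700524 (1692 bp), chr12:1639404-1640768 (1365 bp) and chr20:62489122-62490441 (1320 bp), with mean percentiles of 27.1, 5.38 and 10.9. The widest lost regions were chr22:17325747-17327003 (1257 bp), chr18:20084374-20085509 (1136 bp) and chr11:113344993-113346106 (1114 bp), with mean percentiles of 11.3, 22.9 and 25.1. The lost region on chromosome 22 stood 229 kb from any stable region, and its summit held 15 and 8 reads.

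Some gained regions stood close together. A cluster was counted where at least 3 regions of a class followed each other within 100 kb and no stable region stood between. There were 17 gained clusters with 53 regions (1.92% of gained regions) and 1 lost cluster with 3 regions (0.431%). The mixed pairs had 9, 1, 0 and 15 clusters, the last in the pair with the longest lists. Their share of regions in clusters was 0 to 1.73%, so the gained share lay above every mixed pair and the lost share within their range.

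The 2 largest gained clusters held 4 gained regions each. The first spanned chr19:46709449-46850845, where 8 Gy libraries called 7 and 8 regions and 0 Gy libraries 2 and 3. The second spanned chr4:44489372-44631671, with 7 and 5 regions called at 8 Gy and 0 and 1 at 0 Gy. These counts include other regions in the span, so the 0 Gy calls there are of regions that are not gained. The 4 gained regions of each span are called at 8 Gy and not at 0 Gy by definition.

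In 4 of the 10 clusters named by the rule the unirradiated libraries called nothing in the span. They were chr1:110319526-110336761, chr6:27520912-27544187, chr6:27247871-27271761 and chr9:16421549-16501512, each with 3 gained regions. Gained regions lack 0 Gy calls by definition. Only the 1, 0, 1 and 2 other regions in these spans, in that order, could have held such calls. The remaining 4 were chr20:4554471-4594831, chr22:37678356-37724442, chr19:18511177-18579740 and chr15:81071350-81141990, where single unirradiated libraries called 0 to 4 regions. No HSC-3 library called any member of either cluster on chromosome 6 or of chr19:18511177-18579740. Of all gained regions, 54.3% had no HSC-3 call. Clusters without any HSC-3 call also occurred in the mixed pair with the longest lists. The single lost cluster, chr10:124082742-124123934, held 3 lost regions, each called in at least 1 HSC-3 library.

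The HSC-3 lists, which took no part in choosing the regions, did not call gained regions more often after irradiation in both replicates. Peaks lay in 29.4% and 9.22% of gained regions in the HSC-3 libraries at 0 Gy (replicates 1 and 2) and in 7.63% and 33.2% at 8 Gy. Over all KOSC-2 merged regions the shares were 51.7%, 30.7%, 28.8% and 52.0% in the same order, with a mean difference of -0.802 points from 0 to 8 Gy. The doses overlap, and the low shares belong to the 2 short HSC-3 lists of 22860 and 21955 peaks, 1 at each dose. The mean rose by 1.12 percentage points from 0 to 8 Gy (exact two-sided permutation test, p = 1). In lost regions the HSC-3 shares were 45.7% and 19.0% at 0 Gy and 14.7% and 40.1% at 8 Gy, a difference of -4.96 points (exact permutation p = 0.667). The mixed pairs gave differences of -1.43 to -4.06 points, so both classes lay outside that range, gained regions above it and lost regions below. The lost difference was -1.62 points without KOSC-2 0 Gy replicate 1 and -0.855 without 0 Gy replicate 2. In both cases a call in 1 list defines lost. The lost difference was -5.90 points without 8 Gy replicate 1, -5.29 without 8 Gy replicate 2 and -6.93 with lists of equal length. The gained difference was 0.821 points without 0 Gy replicate 1 and 0.676 without 0 Gy replicate 2. It was 0.0657 without 8 Gy replicate 1, 1.25 without 8 Gy replicate 2 and 1.86 with lists of equal length.

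Few members met the same rule in both lines. Among all KOSC-2 merged regions, 0.632% were called in both 8 Gy and no 0 Gy HSC-3 list, and 0.904% showed the reverse. The first pattern was met by 32 gained regions (1.16%) and 4 lost regions (0.575%), and by 0.525% to 1.31% of the regions of the mixed pairs. The second was met by 20 gained regions (0.723%) and 11 lost regions (1.58%), and by 0.900% to 1.61% in the mixed pairs. Only the share of gained regions with the reverse pattern lay outside the mixed range. No HSC-3 library called 1503 gained regions (54.3%) and 282 lost regions (40.5%), against 38.2% of all merged regions and 28.5% to 59.9% in the mixed pairs, a range that holds both.

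**Figure D4:**
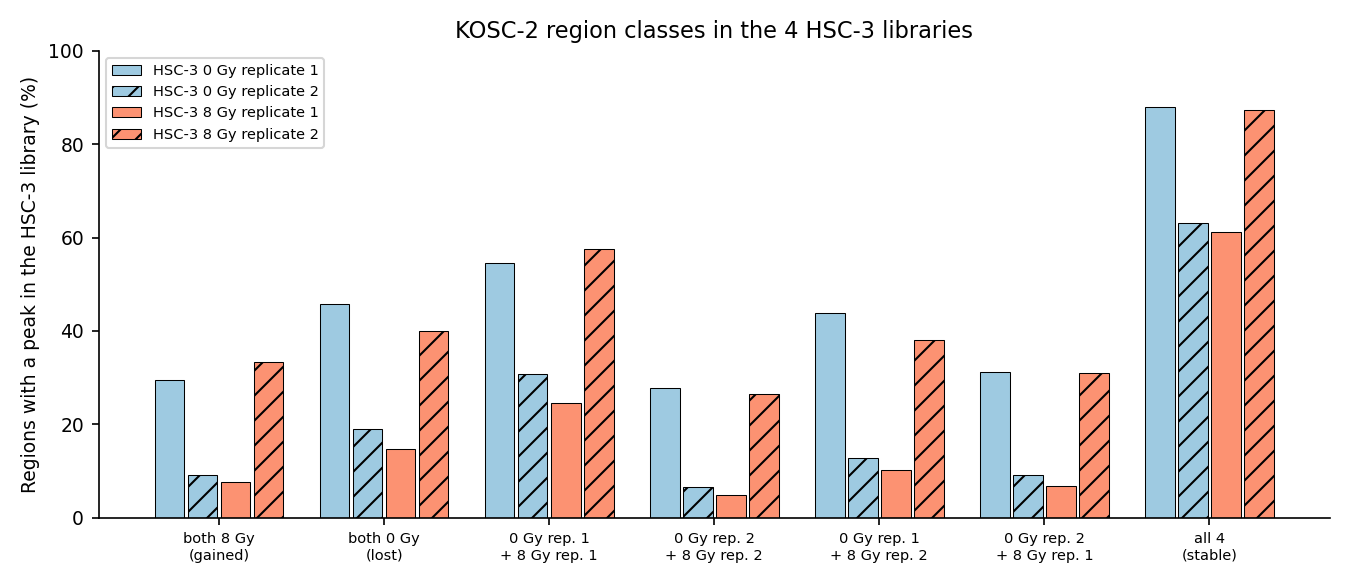
Share of KOSC-2 regions in percent that hold a peak in each of 4 HSC-3 libraries (vertical axis), for gained, lost, mixed-pair and stable regions (horizontal axis); blue bars are 0 Gy and red bars 8 Gy, with replicate 2 hatched. In every class the bars of the 2 long HSC-3 lists, 1 at each dose, stand above those of the 2 short lists, as in gained regions with 29.4% and 9.22% at 0 Gy and 7.63% and 33.2% at 8 Gy.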

How the data were processed

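ATAC-seq peak lists of 4 KOSC-2 libraries (2 at 0 Gy, 2 at 8 Gy) were analysed, with 4 HSC-3 lists for comparison. Each library had its own list without a header. The submitters' processing notes name build hg19 and the tools MACS2 2.2.6, Bowtie2 2.3.4.2, deepTools, FastQC 0.11.7 and SAMtools 1.9, without parameters. How duplicates and the Tn5 shift were handled is not given in the sources used here. The authors deposited, per peak, a whole-number score, a fold enrichment (ratio) at the summit, the −log10 of its p-value and of its q-value, and the summit offset. These values describe, rank or filter peaks within 1 list only. Fold and p gave whole summit pileups in 100% of peaks (tolerance 0.0001 in −log10 p, pileups of 2 to 400 searched). The lowest background was taken to refer to 300 bp and is given as reads per 10 kb. That length was set here as an assumption, because no caller parameters are given. Read totals were not used, so no counting interval is given.

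The members and tests were chosen with earlier results of these data known. Named regions are the 5 gained and 5 lost of highest mean percentile, the 3 widest of each, and up to 10 clusters of each. The 2 mixed-dose splits gave the noise level. Calls of same-numbered libraries did not deviate together over merged regions (r = 0.0243), and the main permutation tests were unpaired. Regions are not replicates, so this value does not settle whether same-numbered libraries form pairs. Comparisons with gene lists, cell type markers, promoters and motifs need hg19 positions or sequence, whereas the reference tables are of GRCh38.p14. These comparisons are not analysed here. The scripts were tested on simulated data in which the class of each region was known. Software was Python 3.11.15, scipy 1.17.1, pandas 2.3.3, matplotlib 3.10.9 and numpy 2.4.6.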

Additional observations from a re-analysis of the deposited data

How the results depend on the processing

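Gained, lost and combined counts stayed within 1.5 times their reported values with −log10 q of at least 5, with 50% of a region covered, with summits within 150 bp and with chromosome X added. The dose split exceeded both mixed splits under these 4 settings, by 1.004 to 1.06 times the higher. With lists of equal length gained regions fell to 1775. Leaving out a library loosens the rule unequally: the dose left with 1 list needs a call in 1 list for its class and the other dose in 2. Gained regions then numbered 3774 to 10817 (3774 and 9242 without 0 Gy replicates 1 and 2, 6086 and 10817 without 8 Gy replicates 1 and 2). Lost regions numbered 1097 to 6546 (5120, 6546, 2651 and 1097 in that order), and both together 8737 to 15788. The ratio of gained to lost was then 0.737 and 1.41 without the 0 Gy replicates and reached 9.86 without 8 Gy replicate 2, which is not comparable with the reported ratio because of that inequality. Without 0 Gy replicate 1 and with the other 3 lists of equal length (chosen after seeing the data), lost regions numbered 4901, both together 8095 and the ratio was 0.652, under the same inequality. The difference in peak number between doses was 494 to 9535 without single libraries, and positive each time. With a replicate block, which here only relabels the same rule, gained and lost counts were 2767 and 696, and the peak number had an exact p of 1 (smallest possible 0.5). Alternatives planned for genes near the regions were not run. The 2 libraries per dose and callable pileups of 6 to 9 reads limit what could be detected.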
